A study of Homo sapiens with 6 samples.

Results

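Interferon-stimulated genes were examined in HK2 cells, a human proximal tubular epithelial line immortalised in culture, after 24 h with TGF-β1 or without it. The 42 genes were a list of symbols drawn up as the classical targets of interferon, and each was read from its entry on a primary chromosome. The list was chosen with earlier results of these data known. They are 42 of the 41497 named entries in the tables. At least 1 read was found for 41 of them, and 36 passed the count filter of edgeR, with a minimum count of 10, that left 14860 entries for testing. The libraries were 3 untreated controls and 3 TGF-β1-treated samples of wild-type HK2 cells, made from poly(A) RNA. HK2 is a single line, and the labels give neither the dose of TGF-β1, which the methods of the study state for TGF-β treatment in general, nor whether replicates came from separate cultures, so p-values measure only the spread between these samples. The methods of the study describe TGF-β treatment in serum-free medium, and the serum state of the control cells is not given in the sources used here.

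Interferons are cytokines that cells release when they sense foreign or misplaced nucleic acid. Type I and type III interferons act through receptor-bound JAK kinases on transcription factors that include STAT2 and IRF9 and bind to interferon-stimulated response elements (ISREs), while interferon gamma acts through gamma-activated sites (GAS). The induced proteins degrade viral RNA, block translation and membrane fusion, or sense more nucleic acid, and many are present at a low level in epithelial cells that have met no interferon. In the kidney, tubular epithelial cells respond to interferon, and TGF-β1 is a main driver of the fibrotic response of the same cells.

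The sequences before the transcription starts show what most of these genes share. RefSeq promoters on GRCh38.p14 were matched for 34 of the 42 genes, and the 250 bases before each RefSeq start were searched on both strands. Where a gene had several starts, it was counted if any of them held the core. The window printed is that of the first such start. A RefSeq start can lie inside the entry that was counted, as for IFI44, PARP14, DDX60 and HERC5, so these windows do not precede the whole entry. The ISRE core, spelled GAAA, any 2 bases and GAAA again (TTTC, any 2 bases and TTTC on the opposite strand), was present in 24 of the 34 (70.6%) and in 3.71% of the 27305 genes with a promoter in the table. The GAS core, spelled TTC, any 3 bases and GAA on either strand, was present in 11 of the 34 (32.4%) and in 8.09% of all genes. The 2 cores can overlap each other, and a match is a description of the letters only. The windows below are printed 5′ to 3′ in the sense of each gene, with the ISRE core in capitals, because the same letters stood before genes that were higher, lower and not called after TGF-β1. Cores of the same promoter that lie outside a window are not shown. The first 4 belong to the genes that were higher.
IFI44L, chr1:78620350-78620409, plus strand: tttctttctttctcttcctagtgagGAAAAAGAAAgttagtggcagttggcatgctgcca
IFI44, chr1:78649746-78649788, plus strand: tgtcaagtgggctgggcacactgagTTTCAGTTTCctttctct
SAMD9, chr7:93118081-93118140, minus strand: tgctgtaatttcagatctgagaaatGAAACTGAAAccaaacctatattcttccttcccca
IFITM3, chr11:320861-320937, minus strand: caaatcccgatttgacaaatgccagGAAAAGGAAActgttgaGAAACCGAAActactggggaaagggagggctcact
The next 6 belong to genes that were lower.
PARP14, chr3:122680785-122680838, plus strand: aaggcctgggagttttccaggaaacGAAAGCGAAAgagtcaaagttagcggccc
IFIT3, chr10:89327816-89327909, plus strand: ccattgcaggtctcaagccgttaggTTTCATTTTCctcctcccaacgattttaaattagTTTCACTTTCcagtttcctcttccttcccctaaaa
DDX60, chr4:168318771-168318865, minus strand: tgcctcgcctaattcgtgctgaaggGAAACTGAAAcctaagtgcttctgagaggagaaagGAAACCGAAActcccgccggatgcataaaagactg
IFITM1, chr11:313975-314034, plus strand: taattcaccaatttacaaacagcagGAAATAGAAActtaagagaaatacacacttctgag
BST2, chr19:17405720-17405785, minus strand: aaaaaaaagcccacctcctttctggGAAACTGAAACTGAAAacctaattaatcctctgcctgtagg
HERC5, chr4:88456969-88457079, plus strand: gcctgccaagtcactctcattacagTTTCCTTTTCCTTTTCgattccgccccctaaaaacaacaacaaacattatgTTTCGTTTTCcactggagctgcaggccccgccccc
The last 2 belong to genes that were not called.
ISG15, chr1:1013359-1013424, plus strand: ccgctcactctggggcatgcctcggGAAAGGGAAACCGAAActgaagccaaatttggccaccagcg
IFIT1, chr10:89392482-89392554, plus strand: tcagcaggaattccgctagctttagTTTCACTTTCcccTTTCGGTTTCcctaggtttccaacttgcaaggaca
In BST2, ISG15 and HERC5 some cores overlap and run together. The ISRE core was present in 4 of 4 higher genes with a promoter entry, in 12 of 20 lower genes and in 5 of 6 genes that were not called. The GAS core was present in 0 of the 4 higher genes and in 8 of the 20 lower genes. The median log2 fold change was -0.34 over the 21 tested genes with an ISRE core and -0.60 over the 9 without one. No promoter entry was available for IFIT2, IFITM2, IRF7, MX2, OAS2, OASL, TRIM22 and USP18. These counts and medians therefore leave out some of the largest decreases, at -2.75 for MX2, -2.65 for TRIM22 and -1.21 for IFIT2.

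After TGF-β1, most of the interferon-stimulated genes were lower, and a small set was higher. With the edgeR quasi-likelihood test and an adjusted p under 0.05, 24 of the 36 tested genes were lower and 4 were higher, where 22.1% of all tested genes were lower and 22.2% were higher, which is 44.3% called in either direction. The 8 genes that were not called were IRF9, IRF7, USP18, IFIT1, IFIT5, ISG15, IFI6 and LGALS3BP. The 6 genes under the count filter were OAS2, IFITM2, RSAD2, IFI27, XAF1 and EPSTI1. Of the 36 tested genes, 30 met the count limit in every library of both groups, and among these 20 were lower and 4 were higher. MX2, TRIM22, CMPK2 and ISG20 met it in every control library but not in every TGF-β1 library, so that they needed the group in which they were high to enter the test. The median log2 fold change was -0.43 over the tested members, with quartiles of -0.69 and -0.16, and 0.0063 over all genes, with quartiles of -0.28 and 0.22. In bulk RNA, fewer cells that express a gene and less of its RNA per cell cannot be told apart.

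The decrease was of similar size in each treated library. The CPM values of the 42 genes summed to 1218, 1245 and 1226 in the controls and to 1013, 1017 and 986 after TGF-β1. CPM is the count per megacount of the library after TMM scaling, which sets the bulk of genes to the same level in each library. The median of the log2 values against the control mean was -0.42, -0.41 and -0.48 in the TGF-β1 libraries and between -0.049 and 0.027 in the controls. The groups did not overlap, with TGF-β1 lower, for 25 of the 36 tested genes, where this was so for 27.7% of all genes. The 25 include MX2, TRIM22 and CMPK2, which entered the test through the control group, so this count is not read against that share. Decreases of at least 2-fold were called for 6 genes, namely MX2, TRIM22, CMPK2, OAS1, IFIT2 and ISG20, and an increase of this size for IFI44L alone, where 5.38% of all genes were lower and 3.68% higher by this much. Of the 6, OAS1 and IFIT2 met the count limit in every library of both groups. The other 4 needed the control group to enter the test, so their number is not read against the share of all genes.

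**Figure D1:**
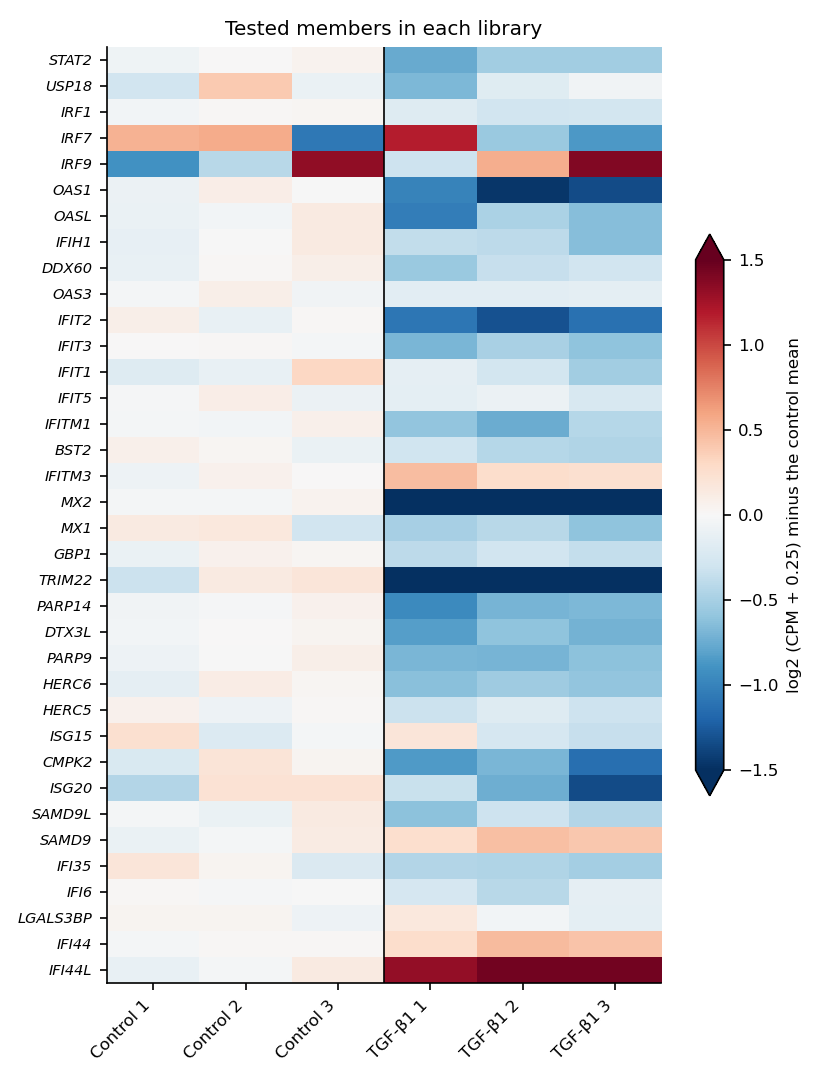
Each row is a tested gene and each column a library, and colour gives log2 (CPM + 0.25) minus the control mean, in log2 units, cut off at -1.5 and 1.5. The TGF-β1 columns are blue for most rows and red for IFI44L, IFI44, SAMD9 and IFITM3, while IRF7 and IRF9 differ as much within groups as between them.

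**Figure D2:**
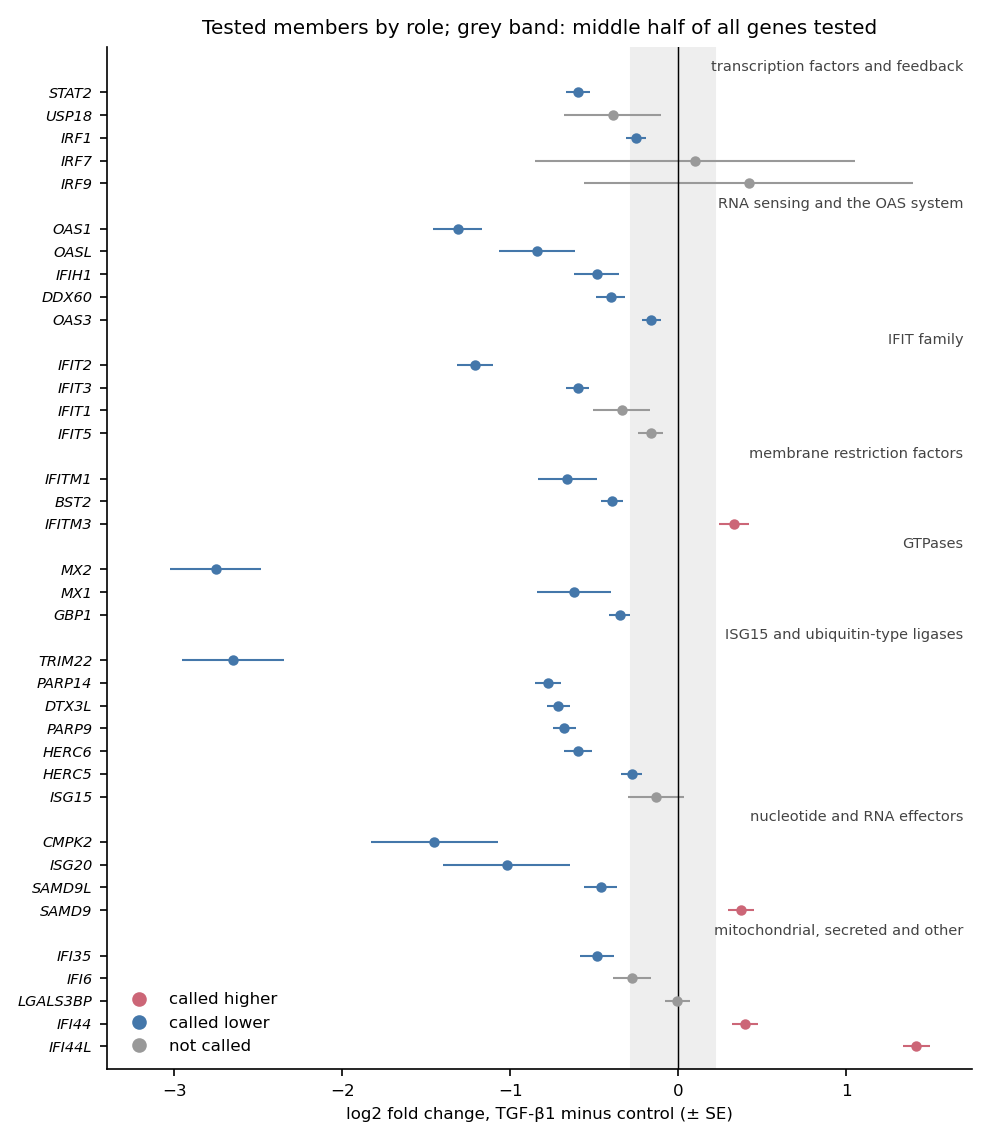
The points give the log2 fold change of TGF-β1 against control for the 36 tested genes, arranged by role, and the bars give ± SE from the edgeR fit of 3 libraries against 3. The grey band spans the quartiles of all 14860 genes, from -0.28 to 0.22, and 24 genes are marked as lower and 4 as higher.

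The 4 higher genes were IFI44L, IFI44, SAMD9 and IFITM3. IFI44L, an interferon-induced protein of the IFI44 family (chr1:78620412-78646145), had 10.9, 11.6 and 13.0 CPM in the controls and 29.8, 32.6 and 32.7 CPM after TGF-β1. All treated values were more than 2-fold above the highest control value. The log2 fold change was 1.42 ± 0.08 (SE), or 2.67-fold, with an edgeR adjusted p of 1.65e-07. IFI44, its neighbour on chromosome 1 (chr1:78648943-78664078), had 15.1, 15.7 and 15.6 CPM in the controls and 18.6, 21.6 and 21.0 CPM after TGF-β1, and its log2 fold change was 0.40 ± 0.08 (SE) at an edgeR adjusted p of 0.00160. The groups did not overlap for either gene. SAMD9, an antiviral factor that acts on translation (chr7:93099518-93117979), had 22.7, 23.8 and 26.5 CPM in the controls and 29.0, 33.3 and 32.3 CPM after TGF-β1. Its log2 fold change was 0.37 ± 0.08 (SE) at an edgeR adjusted p of 0.00291. IFITM3, which blocks fusion of viruses with endosomal membranes (chr11:319676-320860), had 10.7, 11.8 and 11.3 CPM in the controls and 15.7, 13.6 and 13.4 CPM after TGF-β1. All 3 treated values were above the controls, with a log2 fold change of 0.33 ± 0.09 (SE) at an edgeR adjusted p of 0.0110. The call on IFITM3 was lost without Control replicate 1 (edgeR adjusted p = 0.0505) and with scaling by total counts only (0.0700), and IFITM1 and IFITM2 are its paralogs, between which the split of reads was not tested. The calls on IFI44L, IFI44 and SAMD9 held in all alternatives run.

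**Figure D3:**
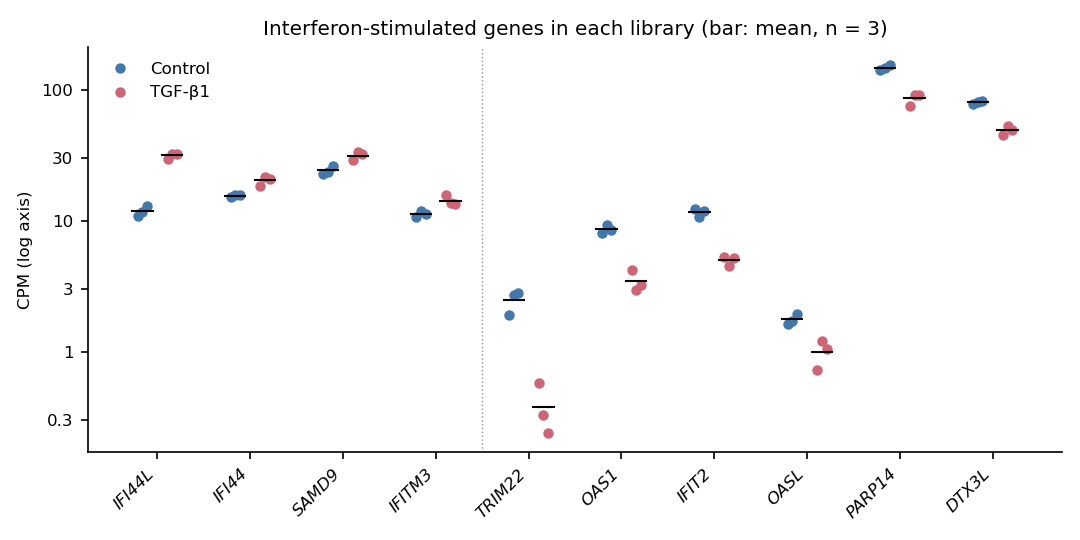
The points give CPM on a log axis in each library for the 4 higher genes, left of the dotted line, and the 6 lower genes with the largest change among those whose mean was 1 CPM or more, right of it. Bars are the means of 3 libraries. In all 10 genes the control and TGF-β1 points do not overlap, but the genes were picked by their calls and changes in these same libraries. TRIM22 met the count limit in every control library but not in every TGF-β1 library. Over all tested genes, 27.7% had no overlap with TGF-β1 lower and 27.9% with TGF-β1 higher.

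Of the 5 transcription factors and feedback regulators, STAT2 and IRF1 were lower and IRF9, IRF7 and USP18 were not called. STAT2, a signal transducer of the type I and type III receptors (chr12:56341597-56360161), had 81.6, 85.6 and 88.2 CPM in the controls and 50.3, 59.4 and 59.4 CPM after TGF-β1. The groups were well apart, with a log2 fold change of -0.60 ± 0.07 (SE) at an edgeR adjusted p of 6.76e-05. IRF1, a transcription factor induced chiefly by interferon gamma, went from 46.4 ± 1.28 to 39.0 ± 1.39 CPM (SD, n = 3), and its log2 fold change was -0.25 ± 0.06 (SE). IRF9, the DNA-binding partner of STAT2, had 5, 10 and 46 reads in the controls and 12, 25 and 43 reads after TGF-β1. The groups overlapped over most of their range, and an entry of the same name on an alternate contig, a second assembly of the same region, held 5 reads, all in a control library. IRF7, which amplifies the type I response, had 26, 29 and 5 reads in the controls and 51, 10 and 6 reads after TGF-β1, again with overlap. Its alternate entry held 74 reads in the controls and 101 after TGF-β1, and gave a log2 fold change of 0.44 with an edgeR adjusted p of 0.264. Values of IRF9 and IRF7 are uncertain because of the spread within groups, and those of IRF7 also because its alternate entry held many reads. The cause of the spread was not tested. USP18, which removes ISG15 from proteins and restrains the receptor, had 22 to 42 reads in the controls and 18 to 26 after TGF-β1.

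The RNA sensors and the 2′-5′-oligoadenylate synthetase (OAS) system were lower throughout, with 5 of 5 tested genes lower and OAS2 under the filter. OAS1, which makes the oligoadenylates that activate RNase L (chr12:112906956-112933219), had 8.11, 9.24 and 8.57 CPM in the controls and 4.19, 2.98 and 3.25 CPM after TGF-β1. The highest treated value was close to 2-fold under the lowest control. The log2 fold change was -1.31 ± 0.15 (SE) at an edgeR adjusted p of 3.26e-05. OAS3, the largest of the synthetases and the most abundant OAS gene here at 48.5 TPM in the controls (counts scaled by gene length and library), had 94.3, 102.2 and 92.8 CPM in the controls and 86.1, 86.1 and 86.9 CPM after TGF-β1. The groups were close without overlapping, with a log2 fold change of -0.16 ± 0.06 (SE) at an edgeR adjusted p of 0.0380, a call that was lost without any 1 of 4 libraries, namely Control replicates 1 and 2 and TGF-β1 replicates 2 and 3 (edgeR adjusted p from 0.0732 to 0.191), and with all genes that had a count (0.0792). OASL, an OAS-like protein that supports RIG-I, had 1.64, 1.72 and 1.96 CPM in the controls and 0.730, 1.20 and 1.05 CPM after TGF-β1. Its log2 fold change was -0.84 ± 0.23 (SE) at an edgeR adjusted p of 0.0116 and a DESeq2 adjusted p of 0.0559. IFIH1, which encodes the RNA sensor MDA5, went from 6.23 ± 0.597 to 4.45 ± 0.466 CPM (SD, n = 3), and its log2 fold change was -0.48 ± 0.13 (SE). The call on IFIH1 was lost without Control replicate 3 (edgeR adjusted p = 0.0582) and without TGF-β1 replicate 3 (0.0501). DDX60, a helicase that promotes RIG-I signalling, went from 23.1 ± 1.65 to 17.5 ± 1.68 CPM, and its log2 fold change was -0.40 ± 0.09 (SE).

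In the IFIT family, whose proteins bind viral RNA that lacks host cap methylation or block its translation, IFIT2 and IFIT3 were lower and IFIT1 and IFIT5 were not called. IFIT2 (chr10:89302046-89309271) had 12.4, 10.7 and 11.8 CPM in the controls and 5.34, 4.55 and 5.20 CPM after TGF-β1. Every treated value was under 0.5 of the control mean, and the log2 fold change was -1.21 ± 0.11 (SE) with an edgeR adjusted p of 6.32e-06. IFIT3, which stabilises IFIT1, had 27.2, 27.3 and 26.5 CPM in the controls and 16.6, 19.2 and 17.7 CPM after TGF-β1, without overlap and with a log2 fold change of -0.60 ± 0.07 (SE). IFIT1, which recognises the cap structure, had 4.56, 4.86 and 6.56 CPM in the controls and 4.76, 4.30 and 3.58 CPM after TGF-β1. These groups overlapped, and the edgeR adjusted p was 0.136. IFIT5 had 22.1, 24.1 and 21.1 CPM in the controls and 20.1, 21.1 and 18.9 CPM after TGF-β1. Its log2 fold change was -0.16 ± 0.07 (SE) at an edgeR adjusted p of 0.103, and scaling by total counts only gave -0.27 and an adjusted p of 0.0129. The exons of IFIT5 share 5.86% of their bases with a gene on the opposite strand.

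Among the membrane restriction factors, BST2 and IFITM1 were lower, IFITM3 was higher and IFITM2 was under the filter. BST2, also known as tetherin, holds budding virions at the cell surface and was the most abundant of the 42 genes at 394 ± 17.5 TPM in the controls (SD, n = 3). It had 125, 121 and 110.5 CPM in the controls and 96.5, 87.8 and 86.9 CPM after TGF-β1, and its log2 fold change was -0.39 ± 0.07 (SE) at an edgeR adjusted p of 0.000624. IFITM1, which acts at the plasma membrane (chr11:314040-315272), had 54, 58 and 61 reads in the controls and 40, 33 and 37 reads after TGF-β1. The log2 fold change was -0.66 ± 0.18 (SE) at an edgeR adjusted p of 0.0109 and a DESeq2 adjusted p of 0.0638. The split of reads among the IFITM paralogs was not tested.

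All 3 GTPases were lower. MX2, which blocks the nuclear entry of retroviruses (chr21:41361944-41409393), had 34, 37 and 38 reads in the controls and 7, 4 and 5 reads after TGF-β1. The treated libraries held few reads, and the fit gave a log2 fold change of -2.75 ± 0.27 (SE) at an edgeR adjusted p of 1.31e-05. MX2 met the count limit in the control group alone, and its mean over all libraries was under 1 CPM. MX1, which traps viral nucleocapsids in the cytoplasm, had 38, 42 and 28 reads in the controls and 26, 26 and 19 reads after TGF-β1. Its edgeR adjusted p was 0.0415 at a log2 fold change of -0.62 ± 0.22 (SE), and the call was lost with DESeq2 (adjusted p = 0.191), with limma-voom (0.0558), with all genes that had a count (0.0697) and without any 1 library except Control replicate 3 (0.0631 to 0.147). GBP1, a guanylate-binding protein that coats intracellular bacteria, had 56.1, 62.8 and 61.1 CPM in the controls and 45.5, 49.1 and 46.9 CPM after TGF-β1, and its log2 fold change was -0.35 ± 0.06 (SE).

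ISG15, the ubiquitin-like modifier, was not called, while the 6 other genes of the ligase group were lower. ISG15 had 8.91, 6.50 and 7.37 CPM in the controls and 8.60, 6.29 and 5.87 CPM after TGF-β1. The groups overlapped, and the log2 fold change was -0.13 ± 0.17 (SE) with an edgeR adjusted p of 0.558. HERC5, the main ligase that attaches ISG15 to newly made proteins, went from 66.2 ± 3.33 to 54.6 ± 2.74 CPM (SD, n = 3), and its relative HERC6 went from 20.4 ± 1.80 to 13.5 ± 0.464 CPM. Their log2 fold changes were -0.28 ± 0.06 and -0.60 ± 0.08 (SE). PARP9, DTX3L and PARP14 lie near each other on chromosome 3, and the products of the first pair work together as an ADP-ribosylating ubiquitin ligase that enhances the interferon response. PARP14 (chr3:122680726-122730840), an ADP-ribosyltransferase, had 142, 146 and 154 CPM in the controls and 75.9, 91.2 and 92.1 CPM after TGF-β1. DTX3L (chr3:122564338-122575203) had 78.0, 81.0 and 82.8 CPM in the controls and 45.2, 53.1 and 49.3 CPM after TGF-β1. PARP9 had 25.1, 26.4 and 28.1 CPM in the controls and 16.3, 16.3 and 17.1 CPM after TGF-β1. In each of the 3 genes every treated value was well under every control value, and the log2 fold changes were close to each other at -0.77 ± 0.08, -0.71 ± 0.07 and -0.68 ± 0.07 (SE), with edgeR adjusted p-values of 1.29e-05, 9.13e-06 and 1.57e-05. PARP9 and DTX3L share 175 exon bases on opposite strands, which is 1.91% and 3.03% of their exons. TRIM22, a ubiquitin ligase that restricts retroviral transcription (chr11:5689790-5710863), had 43, 66 and 66 reads in the controls and 15, 8 and 5 reads after TGF-β1. Its log2 fold change was -2.65 ± 0.30 (SE) at an edgeR adjusted p of 4.08e-05. TRIM22 met the count limit in every control library but not in every TGF-β1 library. It therefore needed the control group to enter the test.

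Among the effectors of nucleotide and RNA metabolism, SAMD9 was higher, SAMD9L, CMPK2 and ISG20 were lower, and RSAD2 was under the filter. SAMD9L, the paralog of SAMD9, had 17.0, 16.1 and 19.1 CPM in the controls and 11.3, 13.9 and 12.8 CPM after TGF-β1. These groups did not overlap, with a log2 fold change of -0.46 ± 0.10 (SE) at an edgeR adjusted p of 0.00299. CMPK2, a mitochondrial nucleotide kinase, had 11, 18 and 15 reads in the controls and 6, 7 and 3 reads after TGF-β1, a log2 fold change of -1.45 ± 0.38 (SE) at an edgeR adjusted p of 0.00941 and a DESeq2 adjusted p of 0.0684. ISG20, an exonuclease that degrades viral RNA, had 15, 29 and 28 reads in the controls and 19, 12 and 5 reads after TGF-β1, so that the groups overlapped. Its edgeR adjusted p was 0.0489, and the call was lost with DESeq2 (adjusted p = 0.117), and without any 1 of Control replicates 2 and 3 and TGF-β1 replicates 2 and 3 (0.106 to 0.155). CMPK2 and ISG20 met the count limit in every control library but not in every TGF-β1 library. Both needed the control group to enter the test.

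The remaining genes encode mitochondrial, secreted and less well understood proteins. IFI44L and IFI44 were higher and IFI35, a partner of NMI in cytokine signalling, was lower, with 19.5, 17.7 and 14.7 CPM in the controls and 12.6, 12.5 and 12.0 CPM after TGF-β1. IFI35 had a log2 fold change of -0.48 ± 0.10 (SE) at an edgeR adjusted p of 0.00271. IFI6, a mitochondrial and endoplasmic reticulum protein that opposes apoptosis, had 7.58, 7.40 and 7.46 CPM in the controls and 6.22, 5.54 and 6.78 CPM after TGF-β1. All treated values were under the controls, but the edgeR adjusted p was 0.0693, and it was 0.0492 with limma-voom and 0.0178 with scaling by total counts only. LGALS3BP, a secreted glycoprotein that binds galectins and was second among the 42 genes in the controls at 377 ± 10.8 TPM (SD, n = 3), had 256, 256 and 237 CPM in the controls and 279, 242 and 226 CPM after TGF-β1. The groups overlapped, with an edgeR adjusted p of 0.976.

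The 6 genes under the filter had few reads in either group. OAS2, the middle-sized synthetase, had 4, 8 and 3 reads in the controls and 3, 3 and 0 after TGF-β1, and the ratio of summed reads per library size was 0.396 with a 95% exact binomial interval from 0.126 to 1.08. IFITM2 had 28 reads in the controls and 11 after TGF-β1, and the ratio was 0.389 (0.175 to 0.806). IFI27, a mitochondrial protein that is strongly induced by interferon in many tissues, had 12 reads against 3 and a ratio of 0.248 (0.0449 to 0.918). RSAD2, or viperin, an enzyme that makes a chain-terminating nucleotide, had 8 reads against 13 and a ratio of 1.61 (0.619 to 4.48). EPSTI1 had 7 reads against 5, and XAF1, a binding partner of an apoptosis inhibitor, had 0 reads in all libraries, which allows up to 0.0426 CPM in the controls and 0.0422 CPM after TGF-β1. The exact permutation test of CPM, which cannot go below 0.1 with 3 libraries against 3, gave p = 0.1 for OAS2 and 0.3 to 0.6 for the other 4 genes with reads. Intervals and limits cover counting error only, and IFI27 has a second entry on an alternate contig.

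Many of these genes lie beside a relative, and neighbours were not always called in the same direction. Within 100 kb of each other, 22 of the 42 genes formed 9 clusters. IFI44L and IFI44 on chromosome 1 were both higher. Of the IFIT genes in chr10:89302046-89420997, IFIT2 had the largest decrease and IFIT5 the smallest estimate, and the OAS genes in chr12:112906956-113011723 ranged from -1.31 for OAS1 to -0.16 for OAS3 in log2 fold change. In 2 clusters neighbours were called in opposite directions. The ratio of SAMD9 to SAMD9L (chr7:93099518-93148385) was 1.33, 1.48 and 1.39 in the controls and 2.58, 2.39 and 2.53 after TGF-β1, a difference of 0.84 on the log2 scale. The ratio of IFITM3 to IFITM1 (chr11:307816-320860) was 4.48, 4.98 and 4.36 in the controls and 10.2, 9.97 and 7.57 after TGF-β1, a difference of 0.99. In both pairs all treated ratios were above all control ratios, and the two-sided exact permutation test gave p = 0.1, the smallest value it can give. The pairs were picked for their opposite calls, so these values are a description.

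**Figure D4:**
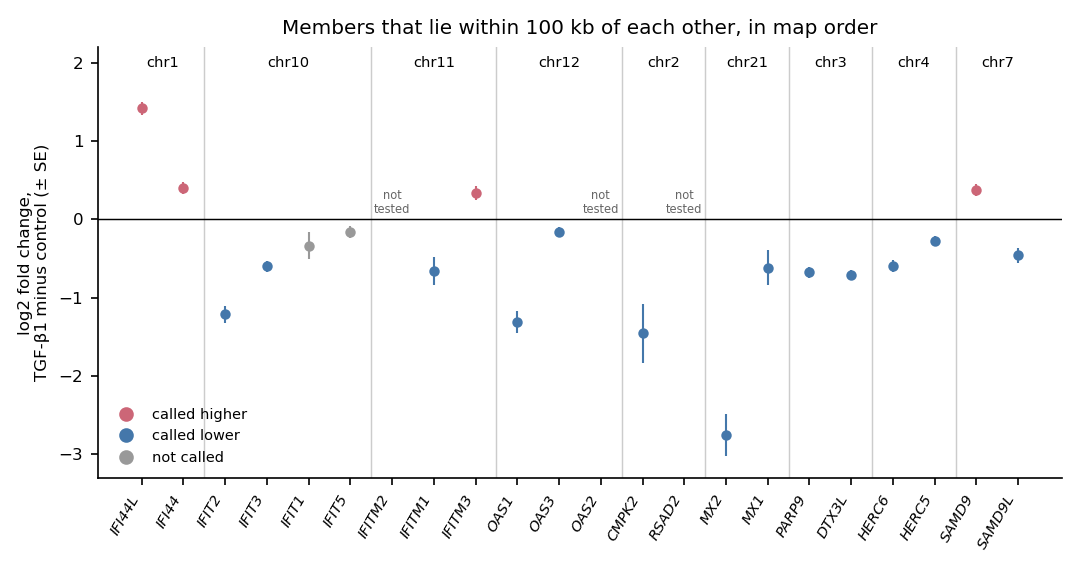
The points give the log2 fold change ± SE (3 libraries against 3) for 19 tested genes of the 9 clusters in map order, with the chromosome above each cluster and 3 untested genes marked as such. SAMD9 and SAMD9L, and IFITM3 and IFITM1, lie on opposite sides of 0.

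The remainder of the interferon pathway was read from 7 lists of 120 genes found in the tables. Of these, 78 were tested, and 37 were lower (47.4%) and 7 were higher (8.97%), against 22.1% and 22.2% of all genes, with a median log2 fold change of -0.14 against 0.0063 over all genes. The lists were chosen with earlier results of these data known, so these shares are a description. Ligands were nearly absent, with 19 of 21 interferon genes at 0 reads in all libraries. IFNE, an epithelial type I interferon, had 6, 5 and 11 reads in the controls and 40, 35 and 30 reads after TGF-β1, a log2 fold change of 2.22 ± 0.30 (SE) at an edgeR adjusted p of 0.000141. These reads are few, and not all control libraries reached the count limit of 10 reads, so that IFNE entered the test through the TGF-β1 group. Of 9 receptor and kinase genes 3 were lower (33.3%) and 1 was higher (11.1%). IFNAR1, the signalling chain of the type I receptor, went from 138 ± 3.35 to 137 ± 4.80 CPM (SD, n = 3). IFNGR1 and IFNGR2, the chains of the interferon gamma receptor, had log2 fold changes of -0.57 ± 0.06 and 0.64 ± 0.12 (SE), and more IFNGR2 reads lay on an alternate entry than on the primary one. JAK1 was lower by -0.23 and IFNAR2 by -0.18 in log2 fold change.

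Of the other STAT and IRF factors, IRF5 and IRF2 were lower, with log2 fold changes of -1.81 ± 0.22 and -0.58 ± 0.06 (SE) and edgeR adjusted p-values of 6.39e-05 and 2.31e-05. IRF5, which drives inflammatory cytokine genes, had 71, 112 and 85 reads in the controls and 29, 31 and 17 reads after TGF-β1, without overlap. Over all tested genes, 22.1% were lower and 22.2% were higher. Of 8 inhibitors of the pathway 3 were lower (37.5%), namely SOCS1 at -0.79, IRF2BP2 at -0.31 and PTPN6 at -0.26, and 0 were higher. The median log2 fold change of the 8 was 0.0089, where that of all genes was 0.0063. Of 14 tested sensors and adaptors 9 were lower (64.3%), among them IKBKE at -0.86, DHX58 at -0.79 and TLR3 at -0.74. The 1 higher gene of this list (7.14%) was TBK1 at 0.19. Of 11 tested antigen presentation genes 2 were higher (B2M at 0.32 and NLRC5 at 0.30) and 3 lower (PSMB10 at -0.37, ERAP1 at -0.28 and ERAP2 at -0.24), shares of 18.2% and 27.3% that are near those of all genes. B2M and several HLA genes have entries on alternate contigs and are uncertain. Of 29 further interferon-responsive genes 16 were lower (55.2%), with GBP2 at -2.19, TNFSF10 at -1.03 and APOL6 at -0.83. In the same list 2 were higher (6.90%), WARS1 at 0.47 and APOL2 at 0.42. GBP2, a relative of GBP1, had 22.5, 21.7 and 23.2 CPM in the controls and 4.49, 5.05 and 5.25 CPM after TGF-β1.

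**Figure D5:**
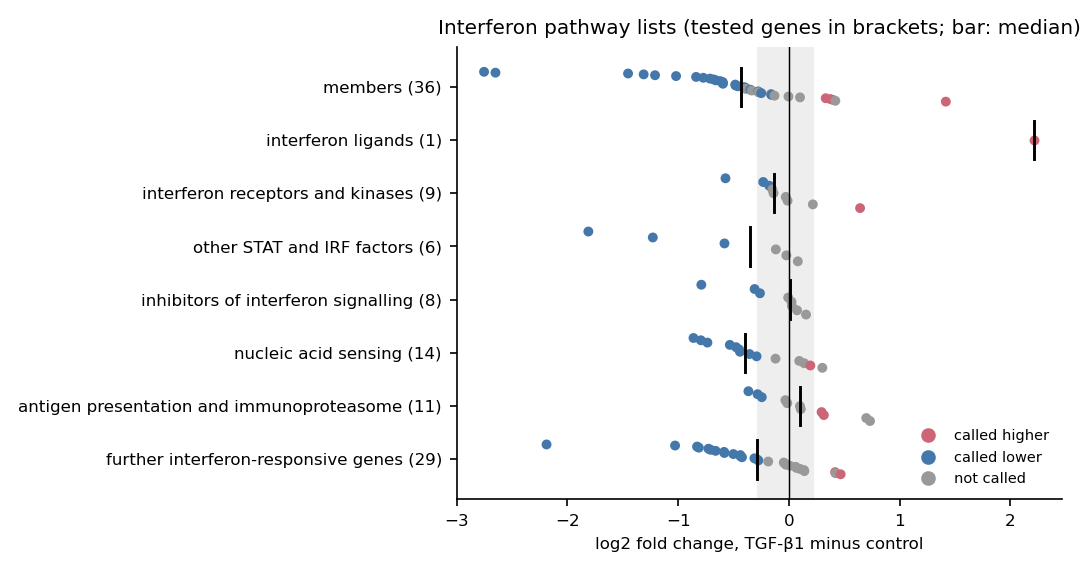
The points give the log2 fold change of each tested gene for the 36 interferon-stimulated genes and the 7 pathway lists, coloured by call, and the black bars are medians. The grey band spans the quartiles of all genes, from -0.28 to 0.22, and the medians are -0.43 for the interferon-stimulated genes and -0.14 over the pathway genes.

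The libraries had 21.9 to 26.9 megacounts. On the second principal component, which held 9.94% of the variance, TGF-β1 replicate 1 stood at 26.9 and the other treated libraries at -13.2 and -15.1. Without TGF-β1 replicate 1, 23 of 37 tested interferon-stimulated genes were lower and 4 were higher, against 24.2% and 23.5% of all genes. All 6 TGF-β response genes checked were higher, from SKIL at 1.08 to COL1A1 at 3.30 in log2 fold change. The kidney factor PAX8 and the keratins KRT8 and KRT18 were present. Markers of the proximal tubule were mixed. LRP2 was at 0 reads, and ANPEP was at or below 0.0886 CPM in every library. GGT1 was present and lower, with means of 75.6 CPM in the controls and 50.5 CPM after TGF-β1. AQP1 and CUBN were called higher from few reads, 28 and 34 in the controls against 123 and 61 after TGF-β1. SLC34A1 had 14 reads in the controls and 3 after TGF-β1. Of 12 immune and endothelial markers 5 were at 0 reads, CD3E among them, and PTPRC did not exceed 0.0852 CPM. The summed level of the 12 was 95.6 to 104 CPM in the controls and 61.5 to 85.4 CPM after TGF-β1, nearly all of it CD68, and its part in the results was not tested.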

How the data were processed

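HK2 cells were treated with TGF-β1 or left untreated for 24 h, with 3 libraries per group as the labels give them. Poly(A) RNA was sequenced. The submitters' processing notes name CASAVA, featureCounts 2.0.1, DESeq2 1.16.1 and hg38. The aligner, the annotation release and the strand setting are not given in the sources used here. The authors deposited raw counts per gene for each library, and the deposited tables also hold TPM and FPKM, which the authors derived from the counts. Tests used the counts, TPM served to compare levels between genes, and FPKM was not used in the text. Entries without a name held 0.396% to 0.464% of counts and were left out of library sizes and tests. Each table had 7 broken records, which were rejoined, and 4519 named entries lay on alternate contigs.

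Genes were filtered with filterByExpr (minimum count 10), scaled with TMM and compared with the robust quasi-likelihood F test of edgeR 4.0.16 in R 4.3.3, which is two-sided, with Benjamini-Hochberg adjustment over 14860 entries. A gene was called at an adjusted p under 0.05. SEs of log2 fold changes were taken from the F statistic, as the absolute estimate over the root of F. CPM used TMM-scaled library sizes. The scripts were tested on simulated data. Alternatives used DESeq2 1.42.0, limma 3.58.1, other scalings and filters, entries of a name summed, a replicate block, and each library left out in turn. Genes shown in full were the higher and lower members with the largest change, up to 6 in each direction, among those averaging 1 CPM or more, and up to 3 pathway genes per list and direction, and 1 gene of these lists is not reported here. Promoters were those of RefSeq (GRCh38.p14). The members, lists and tests were chosen with earlier results of these data known, and the clusters of neighbours were formed after these values were seen.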

Additional observations from a re-analysis of the deposited data

How the results depend on the processing

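Of the 36 tested genes, 22 kept both sign and call in all 14 alternatives that tested them. Another 10 gained or lost a call in at least 1 alternative, and 4 that were not called changed sign. The sign of IRF9 turned without Control replicate 1 (-0.02) and TGF-β1 replicate 3 (-0.22), with a range of -0.22 to 1.85 over the libraries left out. That of IRF7 turned with limma-voom (-0.041), total counts only (-0.00019), the replicate block (-0.071), without Control replicate 3 (-0.36) or TGF-β1 replicate 1 (-1.27), with a range of -1.27 to 0.49. ISG15 turned without Control replicate 1 (0.0011, range -0.33 to 0.0011). LGALS3BP turned with all genes that had a count (0.0060), without Control replicate 1 (0.015), Control replicate 2 (0.015), TGF-β1 replicate 2 (0.014) and TGF-β1 replicate 3 (0.059, range -0.11 to 0.059). The number of lower interferon-stimulated genes is given with the share of all genes that were lower. It was 19 with DESeq2 (19.3%), 24 with limma-voom (22.3%) and RLE size factors (22.6%), and 26 with total counts only (30.9%). It was 22 with all genes that had a count (13.3%) and 17 of 26 tested with a mean of at least 50 counts (24.7%). With the entries of a name summed it was 24 (22.5%). Leaving out each library in turn gave 20 to 23 lower and 3 to 4 higher interferon-stimulated genes, 32 to 39 lower and 5 to 9 higher pathway genes, and 5333 to 7196 changed genes in all. In these fits 17.9% to 24.2% of all genes were lower and 17.6% to 23.5% were higher. Total counts only moved the median of all genes to -0.10 and that of the members to -0.54, with 4590 genes lower and 2134 higher in place of 3288 and 3294, and 4 higher pathway genes in place of 7. Deviations of libraries with the same number correlated at 0.11, -0.01 and 0.08, and those with different numbers at -0.15 to 0.09. The labels do not say whether the numbers pair the libraries. With 3 libraries per group these correlations cannot decide it. The replicate block gave 23 lower and 4 higher interferon-stimulated genes, without the call on ISG20 (edgeR adjusted p = 0.0717), with 3394 genes lower and 3396 higher in all. At this depth a gene at 0 reads could be present at up to 0.0426 CPM in the controls. The causes of these changes were not tested.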
